A study of Mus musculus with 4 samples.

Results

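The 30 genes described here carry out cholesterol synthesis, its control by sterol sensing, and the uptake, storage and efflux of cholesterol in mouse T-helper 17 (Th17) cells, the CD4 T cells that produce interleukin 17. They were chosen by name from a list of the pathway. All 30 were found among the 50600 genes of the deposited tables. RNA from primary Th17 cells of the mouse strain C57BL/6NJ was sequenced as 4 libraries of 1 group, numbered in the labels as biological replicates 1 to 4. The labels name no treatment, give age as unknown and sex as not collected, and give the 4 libraries 1 donor identifier. They do not say that the libraries came from separate animals or cultures. A tag of 2 hours stands in the file headers of the 4 libraries, without the event from which it was counted.

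Cholesterol is built in the cytosol and endoplasmic reticulum from acetyl-CoA through mevalonate, farnesyl diphosphate, squalene and lanosterol. The transcription factors SREBP1 and SREBP2 are held in the endoplasmic reticulum by their escort SCAP and the INSIG proteins while sterols are plentiful, and are cut and released to turn on the enzymes when sterols run low. Oxysterols act in the other direction through the liver X receptors, which turn on the exporters ABCA1 and ABCG1 and the ubiquitin ligase MYLIP. Activated T cells need sterols for membrane growth.

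Total counts ranged from 25847970 to 40652146 fragments. The T cell markers Cd3e, Cd3d, Cd3g, Trac, Lck and Cd4 all exceeded 1 TPM (counts divided by exon length and scaled so that each library has the same total), with summed levels of 5929 to 6301 TPM. Of 6 Th17 markers 3 did so (Il17a, Il17f and Rora), and the means of Il22, Il23r and Ccr6 stood below it. Il17f had 10.2, 7.04, 11.7 and 20.8 TPM in replicates 1 to 4. It was called as varying between libraries in the edgeR test described below (adjusted p = 0.0171). Markers of macrophages summed to 0.749 to 1.42 TPM over 6 genes with Marco at 0 counts. Those of B cells summed to 0.392 to 1.86 TPM over 4 genes with Ms4a1 at 0. Those of epithelium and stroma summed to 7.19 to 10.2 TPM over 4 genes with Col3a1 at 0, and both NK markers had 0 counts. Among these lists, Epcam (mean 6.71 TPM), Col1a1 (1.35 TPM) and Cd79a (1.15 TPM) exceeded 1 TPM. The libraries differed in Xist, which stood at 0.791 and 0.602 TPM in replicates 1 and 2, and at 142 and 76.5 TPM in replicates 3 and 4. Ddx3y, a gene of the Y chromosome, went the other way, with 305, 213, 0.914 and 1.39 TPM in the 4 libraries in order. The libraries thus held RNA of different sex and, against the shared identifier, were not all from 1 animal. Within each of these pairs of libraries the spread may be technical. Fewer cells of a type and less RNA per cell cannot be told apart in bulk RNA.

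Promoter windows of 300 bases, from 250 before to 50 after the RefSeq start (build GRCm38.p6), were used for 24 of the 30 genes, 32 windows in all. The genes without one were Fdps, Fdft1, Sqle, Abcg1, Stard4 and Npc1. Windows are shown for the most abundant pair of genes (Srebf2 and Insig1) and for the gene with an exact match to the sterol regulatory element core (Hmgcs1). They are also shown for the gene with the lowest p between libraries (Abca1) and for the least abundant gene (Lss). Capitals mark the sterol regulatory element core TCACNCCAC, the NF-Y box CCAAT and the E-box CACGTG on either strand, none of which overlap another in these windows. Each window is read 5′ to 3′ on the strand of its gene.
Srebf2 (chr15:82147019-82147318, plus strand): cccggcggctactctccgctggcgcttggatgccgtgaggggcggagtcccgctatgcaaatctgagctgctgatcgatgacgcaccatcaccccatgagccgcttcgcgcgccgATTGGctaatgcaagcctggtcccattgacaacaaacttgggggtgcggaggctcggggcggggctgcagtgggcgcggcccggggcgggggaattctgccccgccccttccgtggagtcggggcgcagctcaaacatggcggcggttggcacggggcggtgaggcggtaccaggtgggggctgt
Insig1 (chr5:28071162-28071461, plus strand): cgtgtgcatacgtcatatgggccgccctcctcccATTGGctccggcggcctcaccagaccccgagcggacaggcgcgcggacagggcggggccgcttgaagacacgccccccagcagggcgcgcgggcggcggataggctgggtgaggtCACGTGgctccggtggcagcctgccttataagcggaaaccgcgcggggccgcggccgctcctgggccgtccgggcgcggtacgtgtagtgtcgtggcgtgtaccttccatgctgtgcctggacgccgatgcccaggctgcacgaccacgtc
Hmgcs1 (chr13:119690101-119690400, plus strand): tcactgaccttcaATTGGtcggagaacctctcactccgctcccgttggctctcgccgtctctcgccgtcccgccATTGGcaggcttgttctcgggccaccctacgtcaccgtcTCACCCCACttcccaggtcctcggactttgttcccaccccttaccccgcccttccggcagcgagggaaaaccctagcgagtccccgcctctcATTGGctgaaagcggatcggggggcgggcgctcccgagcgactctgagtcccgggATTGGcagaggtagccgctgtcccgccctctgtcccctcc
Abca1 (chr4:53159846-53160145, minus strand): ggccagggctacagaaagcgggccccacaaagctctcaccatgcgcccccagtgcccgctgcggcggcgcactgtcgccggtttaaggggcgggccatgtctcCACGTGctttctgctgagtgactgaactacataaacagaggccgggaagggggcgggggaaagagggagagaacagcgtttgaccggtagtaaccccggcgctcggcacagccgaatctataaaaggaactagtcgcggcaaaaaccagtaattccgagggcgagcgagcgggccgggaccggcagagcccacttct
Lss (chr10:76531355-76531654, plus strand): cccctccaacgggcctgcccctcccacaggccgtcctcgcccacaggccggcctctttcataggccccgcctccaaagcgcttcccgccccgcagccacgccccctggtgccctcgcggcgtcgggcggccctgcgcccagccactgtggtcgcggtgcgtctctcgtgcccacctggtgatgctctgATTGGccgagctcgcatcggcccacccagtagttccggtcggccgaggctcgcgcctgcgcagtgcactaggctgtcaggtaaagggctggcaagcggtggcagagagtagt

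Of the 6 motifs searched on both strands, the NF-Y box CCAAT was found in 22 of the 32 windows (68.8%), against 37.4% of 32851 windows of all genes. At the level of genes, 21 of the 24 held it in at least 1 window, and Abca1, Acat2 and Scap did not. The GC box GGGCGG was in 26 windows (81.3%, against 35.7% of all windows) and the E-box in 7 (21.9%, against 7.15%). The windows of all genes were not restricted to genes that reached 1 TPM here, as all 30 members did. No comparison with expressed genes alone was made, so these differences cannot be called particular to the pathway. An exact match to the core TCACNCCAC was in 1 window, that of Hmgcs1, and in 1.24% of all windows. In Hmgcs1 it lay 137 to 129 bases before the RefSeq start. The exons counted for Hmgcs1 begin at 119690462, beyond the end of this window at 119690400, so its distance depends on the annotation. The longer sterol regulatory element, which ends with a form of that core, and the direct repeat bound by liver X receptors were in 0 of the 32 windows and in 0.0913% and 0.0152% of all windows. Hmgcs1 held 4 NF-Y boxes, Insig1 an NF-Y box and an E-box, and Srebf2 and Lss 1 NF-Y box each. Abca1 held an E-box alone of the 3 motifs in capitals. These are exact matches of letters, so a site that differs from a motif by even 1 base was not counted. The Srebf2 window, for example, holds ATCACCCCAT, which differs from the longer element in its last base. A window without a match may therefore still hold a site, and binding was not measured.

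**Figure D1:**
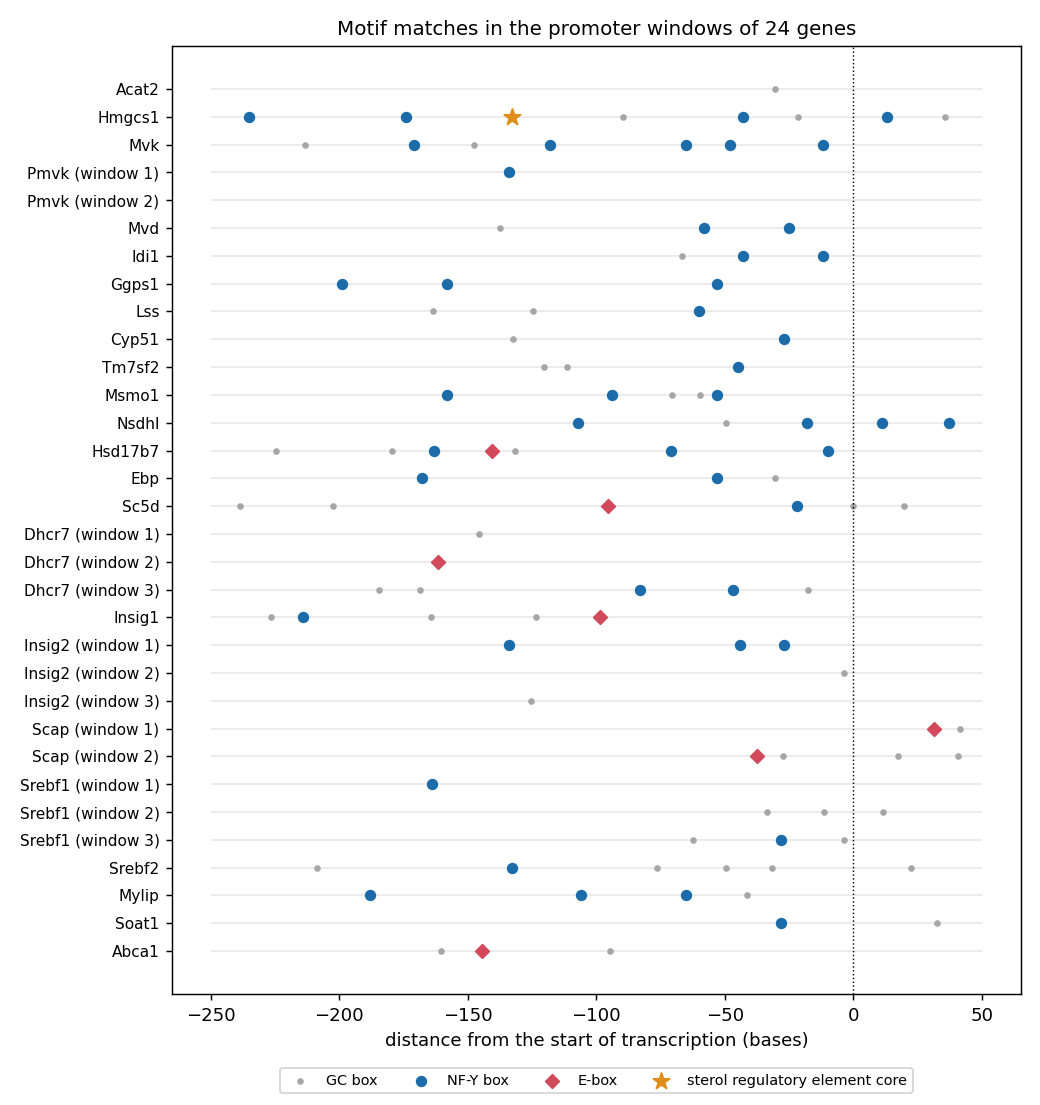
Positions of motif matches in the 32 promoter windows of 24 genes, as distance in bases from the RefSeq start (dotted line), with 1 row per window. Filled circles (NF-Y box) appear in 22 windows, diamonds (E-box) in 7, and the star (sterol regulatory element core) in Hmgcs1 alone; small grey dots are GC boxes.

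Each of the 30 genes reached a mean of 1 TPM, and 27 reached 5 TPM. For comparison, 45.2% of 21764 protein coding genes reached a mean of 1 TPM. The median of the 30 means was 12.9 TPM, against 24.9 TPM over the 9831 protein coding genes at 1 TPM or more. With transcript lengths the median of the members was 23.7 TPM, but only the 30 members were rescaled, and the library totals were not. The value over all protein coding genes was not recomputed, so 23.7 TPM cannot be set against 24.9 TPM. Together the 30 genes took 0.138 ± 0.00550% of the counts (SD, n = 4, as for each ± below). By library this share was 0.132% in replicate 1, 0.145% in replicate 2, 0.139% in replicate 3 and 0.138% in replicate 4. The 95% Wilson intervals of replicates 1 and 2, 0.131 to 0.133% and 0.144 to 0.146%, did not overlap, and these cover counting error only. The 4 most abundant members were the regulators Srebf2, Insig1 and Srebf1 and the exporter Abcg1, and the least abundant were enzymes.

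**Figure D2:**
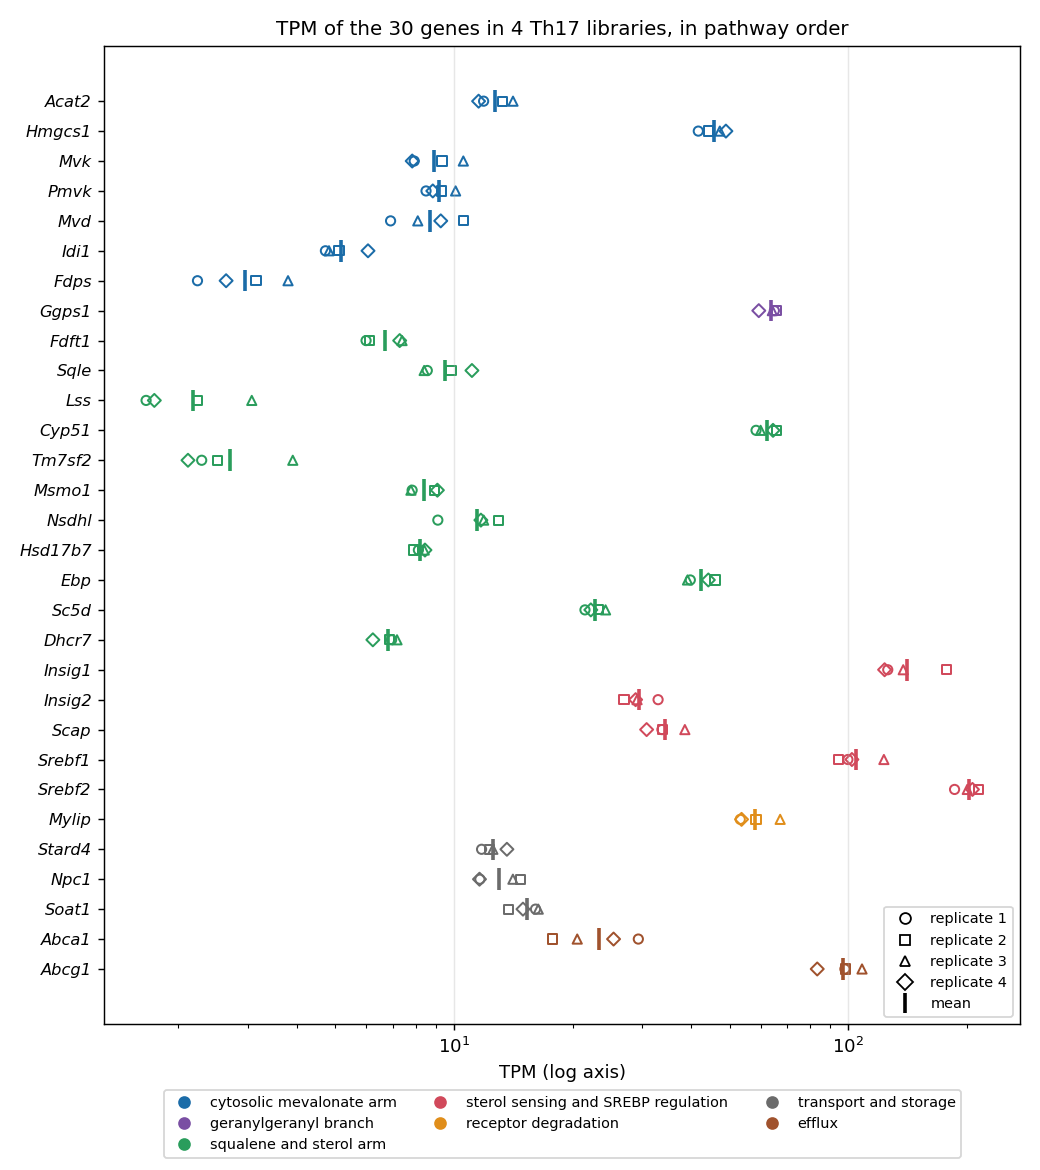
TPM of the 30 genes (log axis) in pathway order from top to bottom, with 1 open symbol per library, a bar for the mean over 4 libraries and colours for the roles in the pathway. Srebf2, Insig1, Srebf1 and Abcg1 lie furthest to the right, between 83.4 and 214 TPM, and Lss, Tm7sf2 and Fdps furthest to the left, between 1.66 and 3.90 TPM.

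Among the sterol sensors, Srebf2, which encodes the SREBP that mainly drives cholesterol genes, stood highest of all 30. It had 186, 214, 200.1 and 206 TPM in replicates 1 to 4 (mean 202 ± 12.0). It lies on chromosome 15 from 82147266 to 82205376 (mm10, the exons counted). Srebf1, whose product acts more on fatty acid genes, had 99.7, 94.3, 123 and 102 TPM (mean 105 ± 12.6). The ranges of Srebf2 and Srebf1 did not overlap. On the log2(TPM + 1) scale Srebf2 exceeded Srebf1 by 0.94 ± 0.20 in 4 of 4 libraries.

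Insig1, itself a target of the SREBPs that retains them in the endoplasmic reticulum, had 126, 177, 138 and 124 TPM in replicates 1 to 4 (mean 141 ± 25.0). It lies on chromosome 5 from 28071363 to 28078662. Replicate 2 stood above the other libraries, which lay close together. The paralog Insig2 had 32.9, 27.0, 29.1 and 28.9 TPM (mean 29.5 ± 2.49). In TPM Insig2 was lowest in replicate 2, where Insig1 was highest, but after the TMM normalization used below Insig2 was lowest in replicate 3. The log2(TPM + 1) difference of Insig1 minus Insig2 was 2.21 ± 0.33, positive in 4 of 4 libraries, with a TPM ratio of 3.82 to 6.57. Scap, the escort that both INSIG proteins bind, had 33.7, 33.8, 38.5 and 30.8 TPM (mean 34.2 ± 3.19). Insig1 exceeded it by 2.00 ± 0.25 on the same scale in 4 of 4 libraries.

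In the mevalonate arm the levels were uneven from step to step. Hmgcs1, the cytosolic HMG-CoA synthase, led the arm with 41.6, 44.3, 47.2 and 48.9 TPM in replicates 1 to 4 (mean 45.5 ± 3.22). Mvk, the kinase that phosphorylates mevalonate, had 7.93, 9.32, 10.6 and 7.84 TPM (mean 8.91 ± 1.29). The ranges were well apart, and Hmgcs1 exceeded Mvk by 2.24 ± 0.19 in log2(TPM + 1) in 4 of 4 libraries. Pmvk, the next kinase, stood at 9.18 ± 0.693 TPM. Mvd, which decarboxylates mevalonate diphosphate to isopentenyl diphosphate, had 6.91, 10.6, 8.10 and 9.26 TPM (mean 8.70 ± 1.56), lowest in replicate 1 and highest in replicate 2. These 3 successive enzymes overlapped in range.

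The entry and exit of the arm are measured with less certainty. Acat2, the cytosolic acetoacetyl-CoA thiolase, stood at 12.7 ± 1.21 TPM, and 43.7% of its 31-mers also occur in other genes, mainly in the related gene Acat3. Idi1, the isopentenyl diphosphate isomerase, stood at 5.18 ± 0.608 TPM with 27.1% of its 31-mers shared, mainly with Gm13502. Fdps, the farnesyl diphosphate synthase, had 2.24, 3.15, 3.80 and 2.64 TPM (mean 2.96 ± 0.672). Of its exon bases 26.7% overlap Gm43738 on the same strand, and 21.2% of its 31-mers occur in genes elsewhere. Fragments of several genes or with several alignments were not counted, so the levels of these 3 genes are uncertain and may be too low. Shares of 10.3 to 14.3% were found for Ggps1, Hmgcs1 and Fdft1, whose levels are uncertain to that extent.

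At the branch point farnesyl diphosphate goes either to geranylgeranyl diphosphate, used to attach small GTPases to membranes, or to squalene. Ggps1, the geranylgeranyl diphosphate synthase, had 64.9, 65.6, 64.1 and 59.3 TPM in replicates 1 to 4 (mean 63.5 ± 2.87), the highest mean of the 19 enzymes of synthesis with the deposited exon length. With transcript lengths it stood at 35.4 TPM, below Cyp51 at 69.7 TPM, Ebp at 55.9 TPM and Hmgcs1 at 42.5 TPM. Fdft1, the squalene synthase, had 5.99, 6.12, 7.39 and 7.28 TPM (mean 6.69 ± 0.744). Fdft1 lay below Ggps1 by -3.07 ± 0.19 in log2(TPM + 1) in 4 of 4 libraries, a TPM ratio of 0.0922 to 0.123. The Fdps minus Fdft1 difference was -0.97 ± 0.21 in 4 of 4 libraries, but turned to 0.68 when the length of the transcript with the longest coding sequence replaced the exon length. The order of Fdps and Fdft1 therefore rests on the length used, while Fdft1 stayed below Ggps1 by -2.56 with transcript lengths.

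In the sterol arm, Cyp51, the lanosterol demethylase, stood highest with 58.3, 65.6, 59.9 and 64.4 TPM in replicates 1 to 4 (mean 62.1 ± 3.51). Its range overlapped that of Ggps1. Ebp, the sterol isomerase, had 39.7, 45.9, 39.1 and 44.1 TPM (mean 42.2 ± 3.32), and Sc5d, the sterol desaturase, stood at 22.8 ± 1.20 TPM. The other 8 enzymes of the arm had means from 2.18 to 11.4 TPM. This split holds for the exon length. With transcript lengths Hsd17b7 at 28.99 TPM, Msmo1 at 25.3 TPM and Dhcr7 at 23.95 TPM stood above Sc5d at 23.2 TPM.

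Sqle, the squalene epoxidase, had 8.56, 9.83, 8.40 and 11.1 TPM in replicates 1 to 4 (mean 9.48 ± 1.26). Lss, which closes the ring to lanosterol in the step after it, had 1.66, 2.24, 3.07 and 1.74 TPM (mean 2.18 ± 0.649), the lowest mean of all 30. Sqle exceeded Lss by 1.74 ± 0.39 in log2(TPM + 1) in 4 of 4 libraries. Lss was still the lowest of the 30 with the transcript length, at 5.03 TPM. Tm7sf2, a sterol reductase, had 2.29, 2.51, 3.90 and 2.12 TPM (mean 2.71 ± 0.814). Both Lss and Tm7sf2 were highest in replicate 3, and 15.3% of the exon bases of Tm7sf2 overlap Vps51 on the same strand.

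The remaining sterol enzymes lay close to each other. Nsdhl, a sterol dehydrogenase that also removes a carboxyl group, had 9.10, 12.95, 11.9 and 11.7 TPM (mean 11.4 ± 1.64), lowest in replicate 1. Msmo1, the methyl sterol monooxygenase, stood at 8.41 ± 0.698 TPM, Hsd17b7, the keto-sterol reductase, at 8.21 ± 0.263 TPM and Dhcr7, the last reductase of the route, at 6.80 ± 0.404 TPM. Hsd17b7 had the smallest spread of the 30 relative to its mean, a coefficient of variation (CV) of 3.20% in TPM. Nsdhl and Ebp lie on the X chromosome. For both genes the range of replicates 3 and 4 overlapped that of replicates 1 and 2, the split seen in Xist.

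Among the exporters, Abcg1 had 98.0, 98.1, 108 and 83.4 TPM in replicates 1 to 4 (mean 96.9 ± 10.2), the fourth level of the 30, with a range that overlapped that of Srebf1. Abca1, which hands cholesterol to lipid-poor apolipoproteins, had 29.3, 17.8, 20.5 and 25.4 TPM (mean 23.3 ± 5.13). Abca1 was high in replicates 1 and 4 and low in replicates 2 and 3, a pattern that Abcg1 did not show. Abcg1 exceeded Abca1 by 2.03 ± 0.39 in log2(TPM + 1) in 4 of 4 libraries. Abca1 and Abcg1 are also well known from macrophages, whose markers Lyz2, Adgre1, Csf1r and Cd14 had 2, 5, 2 and 11 counts over the 4 libraries, with Marco at 0. The remaining marker of that list, Itgam, had 155 counts and stood at 1.098, 0.618, 0.815 and 0.721 TPM in replicates 1 to 4, highest in replicate 1 and lowest in replicate 2 as Abca1 was. Its part in the level of Abca1 was not tested. Mylip, the ligase that marks lipoprotein receptors for degradation, had 53.2, 58.3, 67.1 and 53.6 TPM (mean 58.0 ± 6.48).

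The genes of transport and storage stood in the middle of the order. Soat1, which esterifies cholesterol for storage in droplets, had 16.1, 13.7, 16.4 and 15.0 TPM in replicates 1 to 4 (mean 15.3 ± 1.20), below Abca1 by -0.55 ± 0.26 in log2(TPM + 1) in 4 of 4 libraries. Npc1, which exports cholesterol from lysosomes, had 11.6, 14.8, 14.1 and 11.6 TPM (mean 13.03 ± 1.64). Stard4, a cytosolic sterol carrier, had 11.7, 12.3, 12.5 and 13.6 TPM (mean 12.6 ± 0.783). Stard4 and Npc1 overlapped, with a difference of -0.04 ± 0.20 that was positive in 2 of 4 libraries. With transcript lengths, the difference was -0.90 ± 0.21.

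The 10 pairs were tested with libraries as the unit. For 9 pairs the exact sign-flip permutation test, two-sided, gave p = 0.125 and, after Benjamini-Hochberg adjustment over the 10 pairs, 0.139. For Stard4 minus Npc1 the exact test gave p = 0.75. The first of these is the smallest p that 4 libraries allow, so no pair could pass 0.05. In the order of the 30 means, 21 of the 29 neighbouring genes had ranges that overlapped. The 8 gaps without overlap lay below Srebf2, Insig1, Abcg1, Mylip, Ebp, Sc5d, Hsd17b7 and Idi1.

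**Figure D3:**
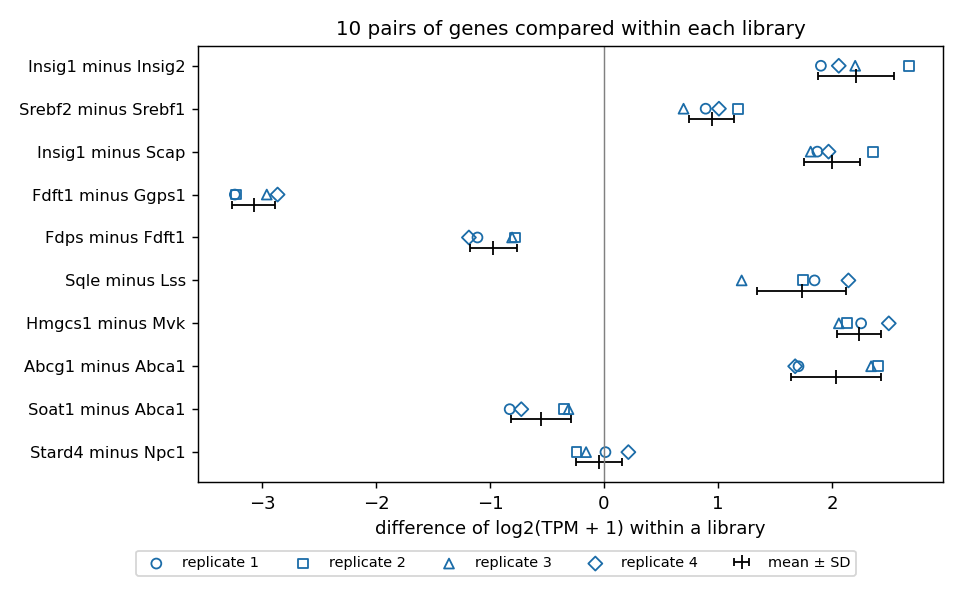
Difference of log2(TPM + 1) within each library for 10 pairs of genes, with 1 open symbol per library and the mean ± SD below it. In 9 pairs the 4 libraries lie on 1 side of 0, from -3.07 ± 0.19 for Fdft1 minus Ggps1 to 2.24 ± 0.19 for Hmgcs1 minus Mvk, and Stard4 minus Npc1 straddles 0.

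Levels between genes depend on the length divided by. The exon length of the tables is the union of the exons in GENCODE M13. The alternative was the length of 1 transcript in GENCODE M21, a different annotation, and for Ggps1, Abcg1, Fdft1 and Hmgcs1 that transcript was longer than the M13 union. With the length of the transcript with the longest coding sequence, the median of the 30 means was 23.7 TPM. Only the 30 members were rescaled in this way, and the library totals kept the exon lengths. Levels with transcript lengths therefore compare the 30 with each other and not with other genes. Hsd17b7, Dhcr7, Fdps and Msmo1 moved most, to 3.53, 3.52, 3.04 and 3.01 times their level, and Ggps1 fell to 0.558 times. Lss, Tm7sf2, Npc1, Sqle, Scap and Mvk moved up by 1.67 to 2.37 times. Srebf2, Insig1 and Srebf1 kept the first 3 places. Variation of 1 gene between libraries does not depend on length.

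The libraries were then compared gene by gene. Each gene was tested for variation beyond that of genes of like abundance (negative binomial deviance at edgeR's trended dispersion, Benjamini-Hochberg adjusted p under 0.05). All 30 members passed the filter on low counts. None of the 30 was called, against 0.813% of 11567 genes tested, so the count of 0 lies near the background and is no result about these genes. At an unadjusted p under 0.05 there was 1 member, Abca1, against 5.98% of all genes. The edgeR adjusted p of Abca1 was 0.331, and that of Insig1, the next, was 0.989. The median CV of the 30 was 10.1% after TMM normalization, against 12.6% over all tested genes, and it ran from 4.00% in Dhcr7 to 24.4% in Lss.

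**Figure D4:**
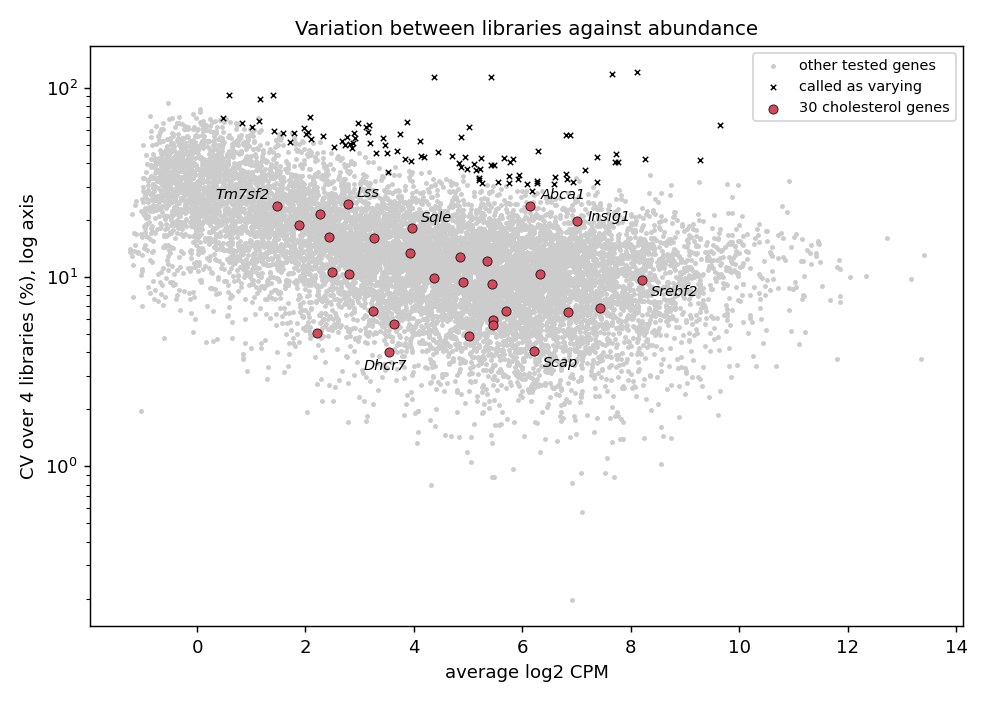
CV over the 4 libraries (percent, log axis) against average log2 CPM (counts scaled to a common library total) for 11567 tested genes, with members as filled circles and the 94 genes called as varying as crosses. All 30 members lie within the grey cloud of genes not called, with Lss (24.4%), Abca1 (23.8%) and Insig1 (19.7%) toward its upper edge for their abundance.

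Although none varied beyond the trend, the enzymes leaned the same way in some libraries. In log2(CPM + 0.5) after TMM normalization, 17 of the 19 enzymes lay below their own mean in replicate 1, with a median deviation of -0.11. The exceptions were Ggps1 and Dhcr7, each at 0.04. In replicate 2, 16 of the 19 lay above their own mean, with a median of 0.11. Over all tested genes 48.6% lay below their mean in replicate 1 and 51.2% above it in replicate 2. The counts of 17 and 16 were the same with library totals and with DESeq2 size factors. The lowest enzymes in replicate 1 were Fdps and Lss, both at -0.32, Nsdhl at -0.29 and Mvd at -0.28. Genes of 1 pathway are not independent, and no test was made of the lean.

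Regulators, exporters and genes of transport and storage followed this lean in part. In replicate 2, Insig1 lay 0.39 above its mean, Npc1 0.23 and Srebf2 0.14, while Abca1 lay at -0.31, Insig2 at -0.08 and Soat1 at -0.10. In replicate 1, Abca1 lay at 0.36, Insig2 at 0.16 and Soat1 at 0.08, against -0.15 for Insig1 and -0.11 for Srebf2. Srebf1 lay below its mean in replicates 1 and 2 (-0.06 and -0.10), and Abcg1 lay above its mean in both (0.03 and 0.07). Replicates 3 and 4 split the enzymes, as examples chosen after their values were seen show. Sqle, Idi1, Ebp, Msmo1, Mvd and Cyp51 lay below their mean in replicate 3, by -0.27 to -0.17, and above it in replicate 4. Lss, Tm7sf2 and Fdps lay 0.39, 0.39 and 0.24 above in replicate 3 and below in replicate 4. Of the 30 genes 13 were highest in replicate 2 (27.6% of all tested genes were) and 13 were lowest in replicate 1 (18.3% of all tested genes were). With 4 libraries no correlation between genes was computed.

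**Figure D5:**
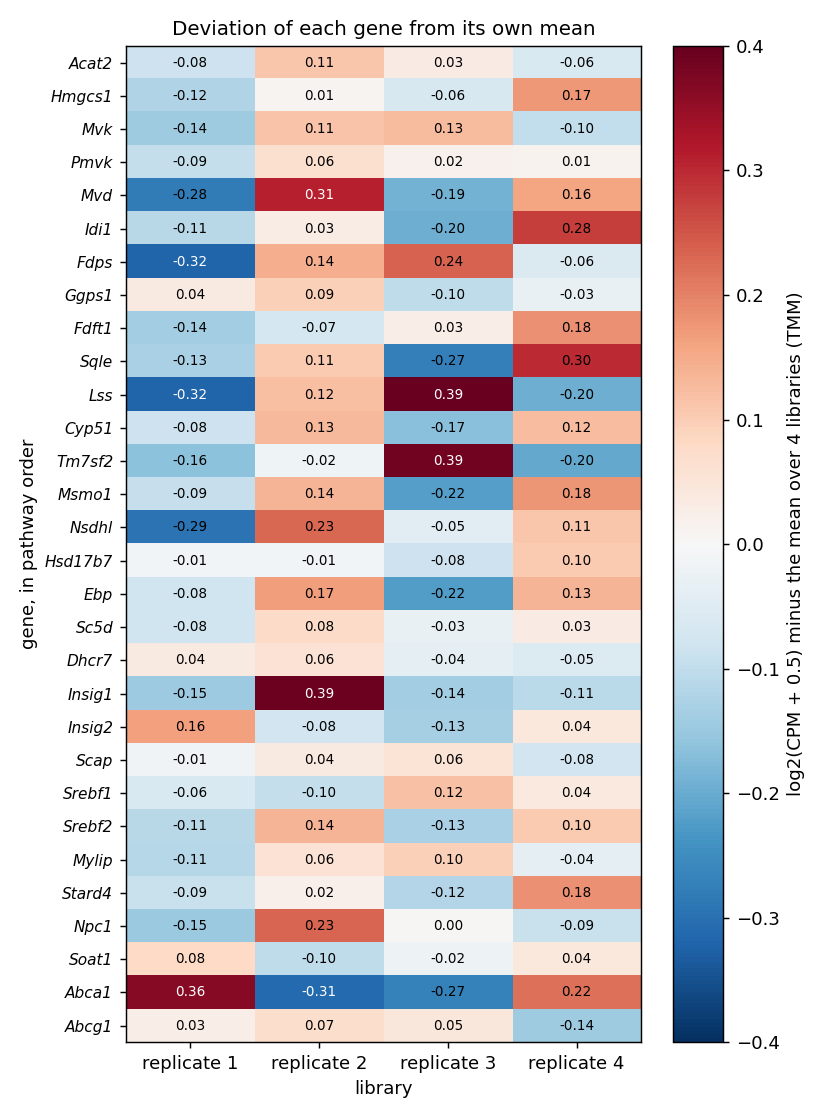
Deviation of each of the 30 genes (rows, pathway order) from its own mean in each library (columns), in log2(CPM + 0.5) after TMM normalization, red above and blue below. The upper 19 rows are enzymes, 17 of which are below 0 in replicate 1 and 16 above 0 in replicate 2, and Abca1 shows the opposite signs.

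The genes around the pathway were counted in related lists. Of 12 partners of the SREBPs and liver X receptors, 11 reached 1 TPM, led by the receptor gene Nr1h2 at 211 ± 28.4 TPM and Sp1 at 134 ± 6.40 TPM. The other liver X receptor gene, Nr1h3, was lowest at 0.687 ± 0.292 TPM on 65 counts. Among ligases and cofactors linked to the INSIG proteins, Rnf139 stood at 137 ± 8.24 TPM and Ufd1 at 37.2 ± 3.55 TPM.

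Fatty acid genes, which share SREBP control, were split more widely than the cholesterol genes. Of the 12, 9 reached 1 TPM, with Elovl6 at 189 ± 13.2 TPM, Elovl5 at 167 ± 12.2 TPM and Me1 at 0 counts. Of 16 further genes of sterol transport, hydrolysis and oxysterol metabolism 11 did so. Npc2, the lysosomal partner of Npc1, led with 384 ± 38.6 TPM and Gramd1a, a carrier between plasma membrane and endoplasmic reticulum, followed with 281 ± 48.7 TPM. The lowest, Cyp27a1, Cyp7b1 and Soat2, had 0 counts in the 4 libraries. At the smallest library a count of 0 leaves room for a level of up to 0.116 CPM. All 12 users of isoprenoids reached 1 TPM, from Rabggta at 78.1 ± 18.0 TPM and Rabggtb at 72.2 ± 7.26 TPM to Pdss2 at 3.78 ± 0.590 TPM. In the edgeR test of variation between libraries, 0 of 11 tested partners of the SREBPs and liver X receptors, 0 of 10 fatty acid genes, 0 of 11 further sterol genes and 0 of 12 users of isoprenoids were called, and 0 had an unadjusted p under 0.05. At a background of 0.813% these counts say nothing particular about the lists. Genes of the pathway outside these lists were not analysed here.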

How the data were processed

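RNA sequencing of 4 Th17 libraries was deposited as raw fragment counts per gene. The authors made the counts with featureCounts 1.4.6-p4 on GENCODE mouse M13 exons, as read pairs with both ends mapped and reverse strand (option 2), per the file headers. With those options, fragments that align to more places or touch more than 1 gene are left uncounted. No alignment settings are recorded in the headers. The assembly is mm10 per the labels. The deposited union exon length, another column of the same tables, was used for TPM.

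Symbols of GENCODE M21 matched 50376 of 50600 identifiers. Total counts were 36298276, 40652146, 26953724 and 25847970 in replicates 1 to 4. Depth limits precision most for Tm7sf2 and Fdps, with 351 and 468 counts in all. Library pairs differed well beyond sampling noise (chi-square per degree of freedom 16.5 to 53.5). Levels are TPM, mean ± SD (n = 4). Counts were modelled with edgeR 4.0.16 (R 4.3.3), intercept only, TMM, its expression filter and trended dispersion; with 1 group the quasi-likelihood test has no coefficient to test. On simulated counts for 11567 genes this step recovered 97% of 100 genes raised 4-fold and 35% of 100 raised 2-fold in 1 library, with 2 false calls. Changes of 2-fold or less would thus mostly be missed. DESeq2 1.42.0 gave alternative size factors and dispersions. The percent of 31-mers shared was computed from M21 transcripts, leaving out genes at the same locus. Promoters are those of RefSeq, GRCm38.p6. Python 3.11.15, numpy 2.4.6, pandas 2.3.3 and scipy 1.17.1 were used.

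The 30 members, the lists, the pairs and the motifs were chosen with earlier results of these data known. All 30 members are named. Of each related list the 2 highest and the lowest gene, with ties, are named, except for 1 gene that is not reported here, and macrophage markers are named beside Abca1. The cell type markers are lists of known genes.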

Additional observations from a re-analysis of the deposited data

How the results depend on the processing

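The count of 0 members called as varying was the same with DESeq2 size factors, library totals, no filter on low counts, the common dispersion, the DESeq2 dispersion trend, and without each replicate. The count over all genes, 94, was 256 with the common dispersion and 35 to 60 without 1 replicate, and 85 to 96 in the other settings. All 30 members stayed at 1 TPM or more in every library and without each replicate. The median of the members' means, 12.9 TPM, was 13.8 TPM with protein coding genes alone in the total and 12.6 to 13.3 TPM without 1 replicate. It was 23.7 TPM with transcript lengths, an alternative chosen after seeing the data. There only the 30 members were rescaled and not the library totals, and the 2 lengths come from different annotations. Of the 10 pair differences, all kept their sign with a pseudocount of 0.1 TPM. With transcript lengths Fdps minus Fdft1 turned to 0.68, and Stard4 minus Npc1 was -0.90 in place of -0.04, with the 4 libraries on 1 side of 0. Stard4 minus Npc1 ran from -0.13 to 0.02 without 1 replicate, and turned to 0.023 without replicate 2; the cause was not tested. The 13 members highest in replicate 2 were 11 with library totals and 12 with DESeq2 size factors, and the 13 lowest in replicate 1 were 16 and 13. Coding lengths from RefSeq proteins were not run. No paired analysis was possible because the libraries form 1 group. Genes with few counts, Tm7sf2 and Fdps among them, carry the widest counting error.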
